A study of Mus musculus with 16 samples.

Results

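The 39 genes of DNA replication and origin licensing were followed in whole thyroid RNA of mice that ate high-fat chow and drank sucrose water (HF+SD) or ate control chow (CD). The members were a fixed list of gene symbols, all 39 found among the 21640 genes of the count table, and each was compared between HF+SD and CD within 3 weeks and within 6 weeks of feeding. The 16 mice were male, wild-type (WT) C57Bl/6J animals, placed on their diets at 8 weeks of age, with 4 mice per diet and time point and 1 poly(A) RNA-seq library per mouse. No mouse carried a transgene or deletion. The CD mice were M53, M54, M55 and M96 at 3 weeks and M22, M43, M45 and M48 at 6 weeks, and the HF+SD mice were M7, M19y, M20y and M31 at 3 weeks and M5, M18, M34 and M35 at 6 weeks. The library names of each time point start with a number of their own, so levels were not compared between 3 and 6 weeks by a test.

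Replication starts when the origin recognition complex (Orc1, Orc6), Cdc6 and Cdt1 load the Mcm2 to Mcm7 ring, the core of the replicative helicase, onto DNA in G1. In S phase the ring is switched on by Mcm10, Cdc45 and the GINS complex, and the forks are then copied by polymerases alpha, delta and epsilon with the sliding clamp PCNA, its loader RFC, the single-strand binding protein RPA, the flap nuclease Fen1 and the ligase Lig1. Ribonucleotide reductase (Rrm1, Rrm2), thymidylate synthase (Tyms) and thymidine kinase (Tk1) supply deoxynucleotides, whereas Chaf1a, Chaf1b and Uhrf1 rebuild chromatin and pass on DNA methylation behind the fork. Adult thyrocytes divide rarely, and thyroid-stimulating hormone is a known mitogen for them.

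The libraries held 30025256 to 48508653 counts. The thyrocyte markers were abundant in all groups, with 11 marker genes summing to 4.90% to 15.0% of counts at 6 weeks and 27.4% to 30.8% at 3 weeks. Skeletal muscle genes (36 genes, of which 32 of 34 tested were lower in HF+SD-fed mice at 6 weeks) stood apart in 3 CD libraries of 6 weeks, at 4.07% of counts in M43, 17.1% in M45 and 12.3% in M48, against 0.176% in M22, 0.162% to 0.491% in the HF+SD mice of 6 weeks and 0.0214% to 0.0711% at 3 weeks. The calls of 6 weeks are therefore given a second time, near the end, without M45 and M48. Endothelial markers rose with the diet at both time points in 10 of 11 genes, their summed level going from 408–552 to 1453–1684 counts scaled to library size (CPM) at 6 weeks and from 704–921 to 1237–1791 CPM at 3 weeks. Parathyroid markers summed to 6069–14790 CPM in the CD mice and 541.6–2173 CPM in the HF+SD mice of 6 weeks, with 1 of 4 genes lower. C cell markers summed to 5904–11020 and 3990–4860 CPM, with 2 of 5 lower. At 3 weeks the sums were 36.5–2968 and 28.0–1110 CPM for parathyroid, with 1 of 4 genes higher. For C cells they were 3312–6675 and 2715–4014 CPM, with 1 of 5 higher and 2 lower. The parathyroid gene that passed at both time points was Pvalb, which is also 1 of the 36 skeletal muscle genes. Pvalb had a CD mean of 4997 CPM (SD 5193) at 6 weeks, which is part of the parathyroid sum. Pth, Gcm2 and Casr had log2 fold changes of -2.18, -2.07 and -0.91 at 6 weeks and did not pass. Of the other marker lists at 6 weeks, 5 of 11 myeloid, 3 of 6 erythroid, 2 of 5 plasma cell, 1 of 5 lymphocyte and thymus and 1 of 8 fibroblast genes were higher, and 1 each of the last 2 lists was lower. At 3 weeks 3 of 8 fibroblast genes were higher and 1 of 5 plasma cell genes was lower, and 0 of 10 myeloid, 0 of 5 erythroid and 0 of 6 lymphocyte and thymus genes passed. In bulk RNA, more cells of a type and more RNA per cell cannot be told apart. The part of these markers in the results below was not tested.

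After 6 weeks of the HF+SD, 6 of the 38 members tested were higher than in CD-fed mice and 0 were lower (edgeR's quasi-likelihood test, Benjamini-Hochberg adjusted p under 0.05 over all genes). Over all 18249 genes tested, 12.0% were higher and 9.55% lower. The 6 genes were Rrm2, Gins2, Cdc6, Mcm5, Uhrf1 and Mcm3, with log2 fold changes of 2.33, 1.49, 0.98, 0.96, 0.93 and 0.84. After 3 weeks, 10 of 38 were higher and 0 lower, against 9.07% higher and 5.78% lower of the 17238 genes tested. These were the same 6 genes plus Pole, Chaf1b, Mcm10 and Mcm2, with log2 fold changes of 2.22, 0.91, 0.86 and 0.75. At an unadjusted p under 0.05, 12 members were higher and 3 lower at 6 weeks, and 12 were higher and 0 lower at 3 weeks. By that measure 18.6% of all genes were higher and 17.7% lower at 6 weeks, and 16.4% and 14.5% at 3 weeks. DESeq2 called 9 members higher and 1 lower at 6 weeks (14.1% and 14.2% of all genes), and 11 higher and 0 lower at 3 weeks (11.8% and 9.69%). The lower gene by DESeq2 was Pold2, a subunit of polymerase delta. The median log2 fold change of the members was 0.16 at 6 weeks and 0.19 at 3 weeks, beside -0.01 at both time points over all genes tested.

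**Figure D1:**
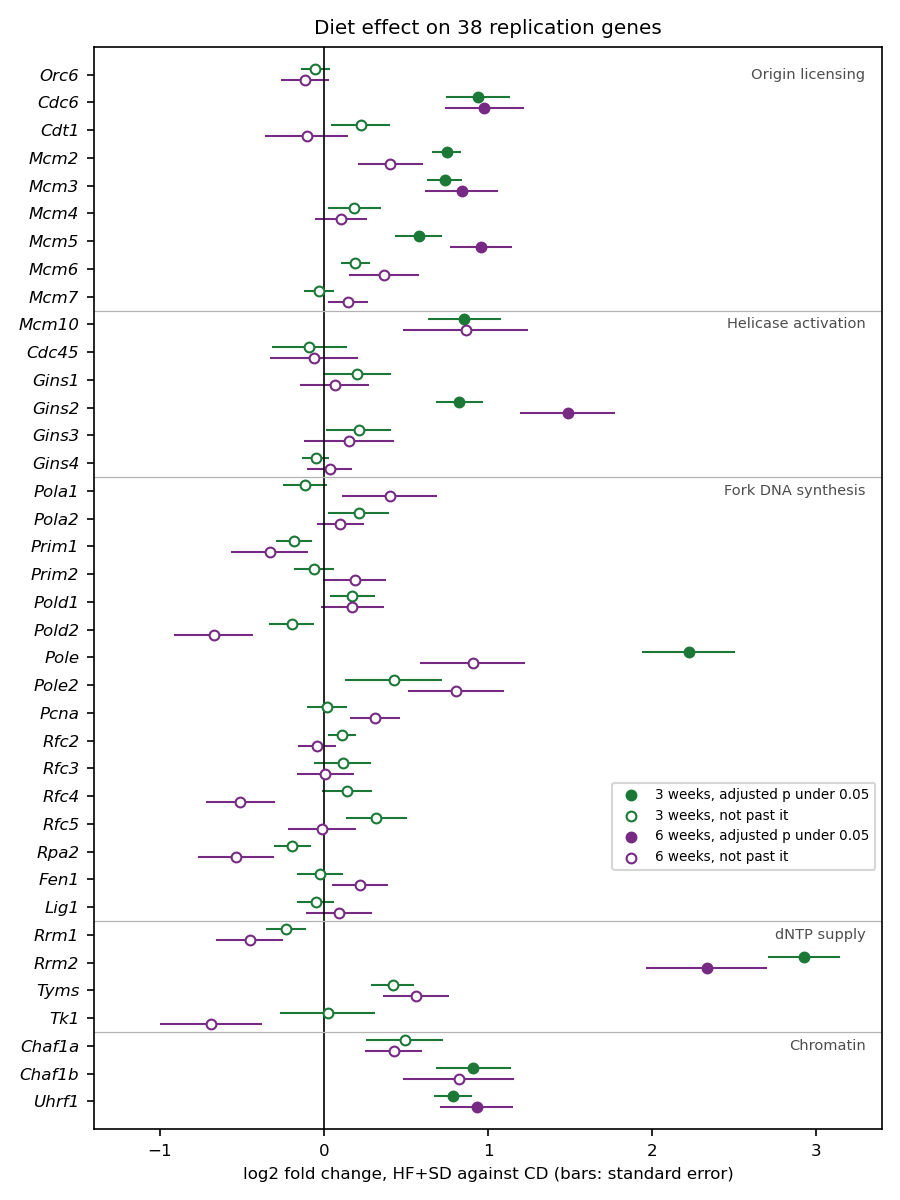
Log2 fold change (x axis) of the 38 tested members in HF+SD-fed mice against the CD at 3 weeks (green) and 6 weeks (purple), with bars of 1 standard error and filled points at an adjusted p under 0.05. Rrm2 lies farthest to the right at both time points, at 2.93 and 2.33, and most genes of DNA synthesis at the fork lie around 0.

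A change larger than 2-fold was shown by 2 members at each time point. These were Rrm2 and Gins2 at 6 weeks and Rrm2 and Pole at 3 weeks, next to 6.64% and 3.25% of all genes higher by that measure, and 0 members were lower by it (6.01% and 1.40% of all genes). The CPM values of all 4 HF+SD mice lay above those of all 4 CD mice for 7 members at 6 weeks (13.8% of all genes) and for 11 at 3 weeks (13.1%). No member lay wholly below the CD mice, as 9.97% and 10.5% of all genes did. The genes that separated without passing the test were Tyms at 6 weeks and Mcm6 at 3 weeks.

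RefSeq promoter windows of GRCm38.p6, from 250 bases before to 50 bases after the transcription start, were at hand for 32 of the 39 members. Here 6 are printed to show what promoters of members that moved and of one that did not share: Rrm2, Mcm5, Mcm3, Cdc6 and Uhrf1 rose at both time points, and Mcm7 passed the test at neither. Capitals mark E2F-type letters (TTTCCCGC, TTTGGCGC, TTTGCCGC or TTTCGCGC) and CCAAT letters, each searched on both strands, and adjacent or overlapping matches run together.
Rrm2 (chr12:24708004-24708303, plus strand): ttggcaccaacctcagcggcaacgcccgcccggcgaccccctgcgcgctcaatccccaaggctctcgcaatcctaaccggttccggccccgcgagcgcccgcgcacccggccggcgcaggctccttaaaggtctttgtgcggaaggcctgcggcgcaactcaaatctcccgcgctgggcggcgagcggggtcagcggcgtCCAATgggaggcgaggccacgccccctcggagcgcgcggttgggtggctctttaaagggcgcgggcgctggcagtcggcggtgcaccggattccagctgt
Mcm5 (chr8:75109259-75109558, plus strand): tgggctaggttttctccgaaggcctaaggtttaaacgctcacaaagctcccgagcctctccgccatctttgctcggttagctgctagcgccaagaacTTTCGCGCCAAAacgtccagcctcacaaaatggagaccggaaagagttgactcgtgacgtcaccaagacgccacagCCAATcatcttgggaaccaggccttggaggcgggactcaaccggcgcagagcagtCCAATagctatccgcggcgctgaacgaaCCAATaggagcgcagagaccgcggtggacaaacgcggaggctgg
Mcm3 (chr1:20820263-20820562, minus strand): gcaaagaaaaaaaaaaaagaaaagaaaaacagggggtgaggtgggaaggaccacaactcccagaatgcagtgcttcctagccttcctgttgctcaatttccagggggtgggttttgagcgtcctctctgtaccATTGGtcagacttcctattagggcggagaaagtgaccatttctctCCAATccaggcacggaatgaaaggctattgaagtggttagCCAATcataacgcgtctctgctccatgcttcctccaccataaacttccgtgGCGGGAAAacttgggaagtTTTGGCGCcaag
Cdc6 (chr11:98907901-98908200, plus strand): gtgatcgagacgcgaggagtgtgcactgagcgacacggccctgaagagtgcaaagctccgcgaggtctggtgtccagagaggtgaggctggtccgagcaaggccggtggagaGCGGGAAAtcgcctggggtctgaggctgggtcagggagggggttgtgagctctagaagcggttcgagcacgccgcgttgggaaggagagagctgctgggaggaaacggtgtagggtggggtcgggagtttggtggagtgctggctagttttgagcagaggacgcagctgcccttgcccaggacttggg
Uhrf1 (chr17:56304063-56304362, plus strand): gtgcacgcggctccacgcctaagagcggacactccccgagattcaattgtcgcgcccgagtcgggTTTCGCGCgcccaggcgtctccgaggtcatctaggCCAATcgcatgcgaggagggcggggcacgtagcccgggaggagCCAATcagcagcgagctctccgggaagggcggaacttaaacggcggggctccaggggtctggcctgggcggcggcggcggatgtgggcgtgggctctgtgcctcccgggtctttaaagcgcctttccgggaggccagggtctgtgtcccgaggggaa
Mcm7 (chr5:138171834-138172133, minus strand): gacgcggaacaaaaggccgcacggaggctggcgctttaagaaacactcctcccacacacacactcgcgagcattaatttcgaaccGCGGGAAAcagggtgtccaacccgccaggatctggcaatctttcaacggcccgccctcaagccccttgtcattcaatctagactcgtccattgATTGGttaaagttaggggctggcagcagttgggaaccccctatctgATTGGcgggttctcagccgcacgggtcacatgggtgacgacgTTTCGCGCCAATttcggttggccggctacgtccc
E2F-type letters, the kind bound by the E2F factors that drive S phase genes, were held by the windows of 14 of the 32 members (43.8%), compared with 2.60% of the 27025 genes with a window. They were present in 4 of the 8 members higher at 3 weeks that have a window (50.0%) and in 10 of the 24 others (41.7%). The Rrm2 window has none of these letters and 1 CCAAT, whereas the printed Mcm7 window has 2 E2F-type and 3 CCAAT matches. Mcm7 and Uhrf1 have 2 windows each, and the one with more E2F-type, then more CCAAT, matches was picked for printing. Rrm2, Mcm5, Mcm3 and Cdc6 have 1 window each. Over both of its windows Mcm7 has 2 E2F-type and 4 CCAAT matches. CCAAT letters were in 62.5% of members and 41.1% of all genes, and the letters TTTGAA, the CHR element of late cell cycle genes, in 15.6% of members and 20.2% of all genes. These letter matches are a description and were not tested as binding sites.

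Among the 10 genes of helicase loading, 9 passed the low-count filter. Of these, 3 rose at 6 weeks and 4 at 3 weeks, beside 12.0% and 9.07% of all genes tested. Mcm5, a subunit of the helicase ring, had 4.22, 3.84, 2.79 and 3.81 CPM in CD-fed M22, M43, M45 and M48 and 6.22, 8.09, 7.94 and 6.26 CPM in HF+SD-fed M5, M18, M34 and M35. The groups did not overlap at 6 weeks, and the log2 fold change was 0.96 (standard error, SE, 0.19; adjusted p = 0.00907). At 3 weeks Mcm5 had 7.20, 7.16, 6.12 and 4.80 CPM in M53, M54, M55 and M96 (CD) and 9.93, 9.19, 9.90 and 8.75 CPM in M7, M19y, M20y and M31 (HF+SD). Here too all HF+SD mice were above all CD mice, with a log2 fold change of 0.58 (SE 0.14, adjusted p = 0.0246).

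Mcm3, a neighbour of Mcm5 in the ring, had 4.13, 2.83, 3.41 and 4.92 CPM in CD-fed mice and 5.33, 7.65, 6.43 and 7.98 CPM in HF+SD-fed mice at 6 weeks, with the mice in the order given above. M48 of the CD and M5 of the HF+SD came closest to each other, and the log2 fold change was 0.84 (SE 0.22, adjusted p = 0.0263). At 3 weeks its CD values were 5.12, 6.21, 6.07 and 5.40 CPM and its HF+SD values 9.31, 9.75, 9.07 and 9.85 CPM. The spread within each diet was small beside the gap between them at 3 weeks, where the log2 fold change was 0.74 (SE 0.11, adjusted p = 0.00227).

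Mcm2, the subunit that closes the ring beside Mcm5, had 15.8, 18.9, 17.9 and 16.5 CPM in CD-fed mice and 28.3, 31.6, 26.4 and 29.7 CPM in HF+SD-fed mice at 3 weeks, without overlap (log2 fold change 0.75, SE 0.09, adjusted p = 0.000880). Its CPM at 6 weeks was 15.6, 8.79, 12.2 and 13.7 under the CD and 13.8, 17.0, 15.97 and 19.8 under the HF+SD. M22 of the CD then lay above M5 of the HF+SD, and the log2 fold change of 0.41 (SE 0.20) did not pass (adjusted p = 0.172). The difference between the time points, 6 minus 3 weeks, was -0.40 on the log2 scale (adjusted p = 0.328 for the interaction).

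Cdc6, the ATPase that brings the ring to the origin, had 1.04 to 1.58 CPM in CD-fed mice and 1.71 to 3.05 in HF+SD-fed mice at 6 weeks, and 1.09 to 1.27 and 1.61 to 2.59 CPM at 3 weeks. Its log2 fold change was 0.98 (SE 0.24, adjusted p = 0.0211) at 6 weeks and 0.94 (SE 0.19, adjusted p = 0.0121) at 3 weeks, from 32 to 106 counts per library. Cdt1, its partner in loading, did not follow it. It had 2.21, 1.23, 1.92 and 1.54 CPM in CD-fed mice and 1.35, 1.51, 1.40 and 2.15 in HF+SD-fed mice at 6 weeks, and 3.69, 2.45, 3.65 and 3.08 against 3.95, 3.94, 4.19 and 2.98 at 3 weeks. The diets overlapped at both time points, and the log2 fold changes were -0.10 (SE 0.25) and 0.22 (SE 0.18). Orc1, the ATPase subunit of the origin recognition complex, was below the filter. Its counts were 6, 5, 1 and 0 in CD-fed mice and 6, 15, 13 and 14 in HF+SD-fed mice at 6 weeks, and 2, 3, 2 and 1 against 2, 13, 11 and 12 at 3 weeks. In 3 of 4 HF+SD mice at each time point these counts were above every CD mouse, and M5 and M7 were not. With no filter on low counts its log2 fold change was 2.03 (SE 0.69, adjusted p = 0.0679) at 6 weeks and 2.11 (SE 0.64, adjusted p = 0.0604) at 3 weeks. The remaining loading genes did not pass at either time point: at 6 and 3 weeks the log2 fold changes were 0.37 and 0.19 for Mcm6, 0.10 and 0.19 for Mcm4, 0.15 and -0.03 for Mcm7 and -0.11 and -0.05 for Orc6.

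**Figure D2:**
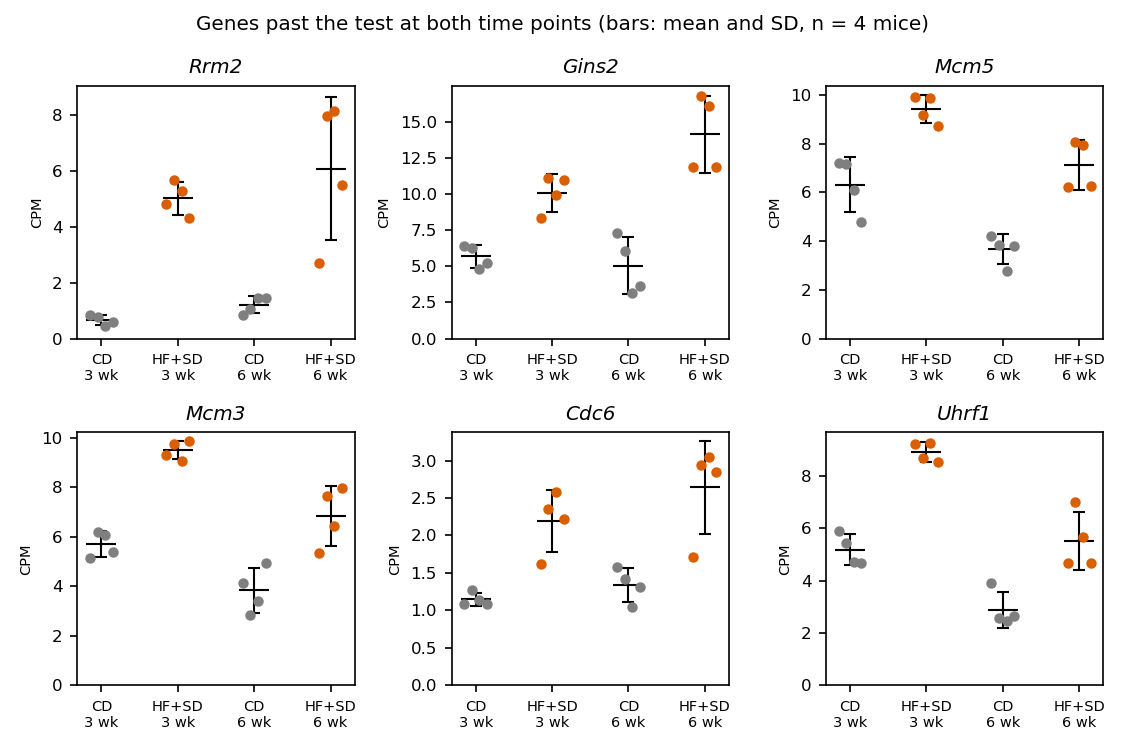
CPM (y axis, from 0) of the 6 members past the test at both time points, 1 point per mouse, with the mean and SD of 4 mice per group. In each gene the HF+SD points (orange) lie above the CD points (grey) of the same time point, with M5 the lowest HF+SD mouse of 6 weeks for Rrm2 at 2.69 CPM.

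The 6 subunits of the Mcm2 to Mcm7 ring act at equal numbers, but their transcripts did not stand at equal levels. Counted per kb of transcript, the CD means at 6 weeks ran from 1.08 CPM per kb for Mcm5 and 1.26 for Mcm3 to 5.51 for Mcm6 and 8.09 for Mcm7. On the HF+SD they ran from 2.11 for Mcm5 and 2.26 for Mcm3 to 7.11 for Mcm6 and 8.95 for Mcm7. The level of the highest subunit over the lowest was 5.69 to 9.94 in the CD mice and 3.69 to 4.79 in the HF+SD mice at 6 weeks, and 3.74 to 5.32 and 2.68 to 3.45 at 3 weeks. Thus the 2 diets did not overlap in this ratio at either time point. The subunits that passed were Mcm3 and Mcm5 at 6 weeks, and Mcm2, Mcm3 and Mcm5 at 3 weeks, and Mcm3 and Mcm5 had the lowest CD levels of the ring. Mcm5 over Mcm7 per kb rose from 0.101–0.176 to 0.219–0.271 at 6 weeks and from 0.199–0.277 to 0.329–0.382 at 3 weeks. These ratios, and those of Gins2 and Rrm2 below, use the values of members already called higher. Their differences between the diets restate those calls and are not separate results.

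**Figure D3:**
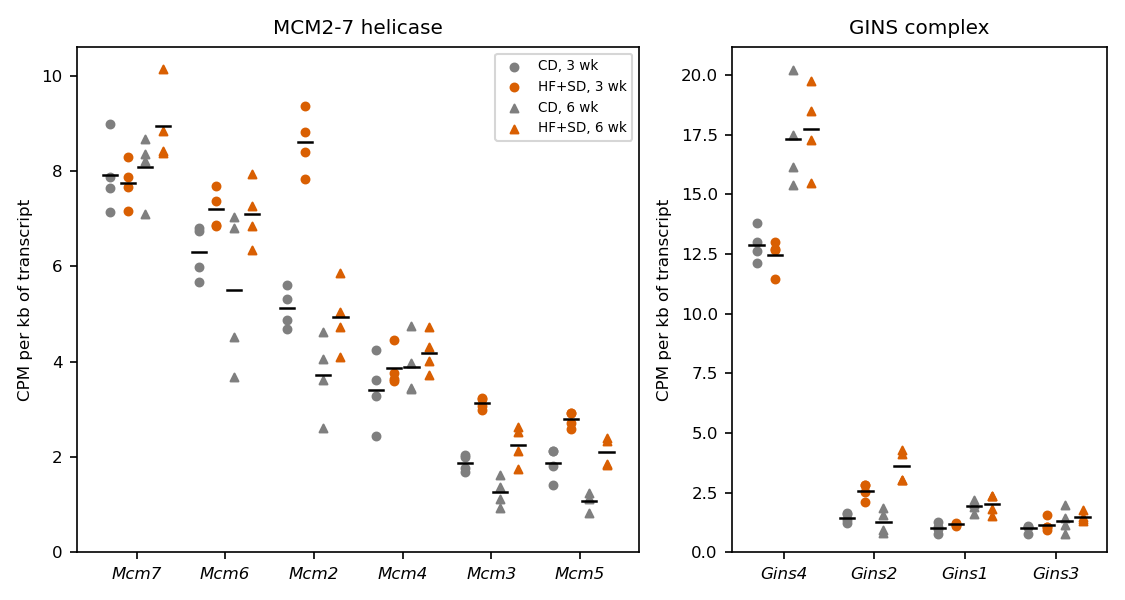
CPM per kb of transcript (y axis, from 0) of the Mcm2 to Mcm7 subunits (left) and the GINS subunits (right), 1 point per mouse, circles for 3 weeks and triangles for 6 weeks, with group means as bars. Mcm5 and Mcm3 are the lowest of the ring in CD mice, at 1.08 and 1.26 at 6 weeks, and Gins2 is the GINS subunit that shifts between grey (CD) and orange (HF+SD).

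Of the 6 genes that switch the helicase on, 1 rose at 6 weeks and 2 at 3 weeks. Over all genes tested, 12.0% and 9.07% were higher. Gins2, a subunit of the GINS complex, had 7.32, 6.05, 3.12 and 3.67 CPM in CD-fed mice and 11.8, 16.8, 16.1 and 11.9 CPM in HF+SD-fed mice at 6 weeks. All HF+SD mice exceeded all CD mice, by a log2 fold change of 1.49 (SE 0.29, adjusted p = 0.00834). At 3 weeks it had 6.44, 6.26, 4.81 and 5.25 CPM in CD-fed mice and 8.31, 11.1, 9.93 and 11.0 in HF+SD-fed mice, again without overlap (log2 fold change 0.83, SE 0.14, adjusted p = 0.00494). The other GINS subunits did not pass, with log2 fold changes at 6 and 3 weeks of 0.07 and 0.20 for Gins1, 0.15 and 0.21 for Gins3 and 0.04 and -0.05 for Gins4. Gins2 per kb, over the mean of the other 3 subunits, went from 0.115–0.3004 to 0.418–0.585 at 6 weeks and from 0.261–0.326 to 0.428–0.567 at 3 weeks. In the GENCODE M21 annotation, 70.7% of the exon bases of Gins2 lie opposite exons of Gse1, a gene on the other strand. Whether the counting used strand is not given in the sources used here. Gse1 itself had log2 fold changes of 0.25 at 6 weeks (adjusted p = 0.440) and -0.0034 at 3 weeks (adjusted p = 0.995).

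Mcm10, which helps to open the ring, had 0.845 to 3.21 CPM in CD-fed mice and 2.61 to 5.35 in HF+SD-fed mice at 6 weeks, with overlap (log2 fold change 0.86, SE 0.38, adjusted p = 0.134). At 3 weeks the ranges were 0.959 to 1.75 and 1.99 to 3.09 CPM, and the gene passed with a like log2 fold change of 0.86 but a smaller SE of 0.22 (adjusted p = 0.0308). Cdc45, the helicase cofactor that travels with the fork, showed no such pattern. It had 1.98, 2.86, 4.58 and 3.01 CPM in CD-fed mice and 3.61, 3.29, 2.50 and 2.50 in HF+SD-fed mice at 6 weeks, and 1.66, 2.65, 2.83 and 1.59 against 1.91, 1.97, 2.35 and 1.97 at 3 weeks. The HF+SD values lay inside the CD range at both time points, and the log2 fold changes were -0.06 (SE 0.27) and -0.09 (SE 0.23).

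Of the 16 genes of DNA synthesis at the fork, 0 passed at 6 weeks and 1 at 3 weeks. This was the smallest share of the groups, but in 16 genes it lies near the 12.0% and 9.07% of all genes higher. The gene that passed was Pole, the catalytic subunit of polymerase epsilon, which copies the leading strand. At 3 weeks Pole had 0.718, 0.649, 0.669 and 0.355 CPM in CD-fed mice and 1.83, 3.35, 3.34 and 2.64 in HF+SD-fed mice, from 15 to 29 counts and 68 to 131 counts per library. The groups were far apart, with a log2 fold change of 2.22 (SE 0.28, adjusted p = 0.00116). At 6 weeks it had 1.12, 0.822, 1.53 and 2.05 CPM in CD-fed mice and 1.74, 2.89, 3.37 and 2.34 in HF+SD-fed mice. M48 of the CD was then above M5 of the HF+SD, and the log2 fold change of 0.91 (SE 0.32) missed the threshold (adjusted p = 0.0724). Pole had the lowest interaction p of the members, with a difference of -1.38 (6 minus 3 weeks, unadjusted p = 0.00740), and it did not pass after adjustment (adjusted p = 0.0947).

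The second subunit of polymerase epsilon, Pole2, had log2 fold changes of 0.81 at 6 weeks (adjusted p = 0.0778) and 0.43 at 3 weeks. Neither subunit of polymerase delta passed, with 0.17 and 0.17 for the catalytic Pold1 and -0.67 (adjusted p = 0.0753) and -0.20 for Pold2. The 4 genes of polymerase alpha-primase had log2 fold changes of 0.40 and -0.11 (Pola1), 0.10 and 0.21 (Pola2), -0.33 and -0.18 (Prim1) and 0.19 and -0.06 (Prim2), and 0 passed at either time point. Among clamp loader genes, Rfc5 had 8.64, 7.08, 5.88 and 7.31 CPM in CD-fed mice and 4.93, 7.43, 8.64 and 7.68 in HF+SD-fed mice at 6 weeks. At 3 weeks it had 6.14, 6.85, 3.65 and 6.11 in CD-fed mice and 6.40, 6.96, 7.76 and 7.27 in HF+SD-fed mice. The diets overlapped for Rfc5 at both time points, with log2 fold changes of -0.01 (SE 0.21) and 0.32 (SE 0.18). Rfc2, Rfc3 and Rfc4 had -0.04, 0.01 and -0.51 at 6 weeks and 0.11, 0.11 and 0.14 at 3 weeks, and none of the 3 passed.

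Pcna, whose product is the clamp, had the highest level per kb of all members, 34.9 CPM per kb in CD-fed mice and 43.4 in HF+SD-fed mice at 6 weeks and 27.0 and 27.3 at 3 weeks. Its log2 fold changes were 0.31 (SE 0.15, adjusted p = 0.169) and 0.02 (SE 0.12), so the member with the most transcripts did not pass at either time point. The annotation also holds 2 Pcna pseudogenes and 1 of Tyms, with which reads may be shared. The last genes of the group, Rpa2, Fen1 and Lig1, had log2 fold changes of -0.54, 0.22 and 0.09 at 6 weeks and -0.19, -0.02 and -0.05 at 3 weeks. Fen1 shares 78.8% of its exon bases with a gene on the opposite strand, Gm10143, at a mean of at most 0.173 CPM in any group. It also shares 5.37% with Tmem258, on the opposite strand too, at group means of 50.3 to 101.5 CPM. Likewise, 13.4% of the exon bases of Rfc4 lie opposite Eif4a2 (group means 428 to 730 CPM) and 15.4% of those of Rfc5 opposite Wsb2 (42.4 to 72.9 CPM). Of the 39 members, 14 share exon bases with another gene, and their part in the counts was not tested.

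**Figure D4:**
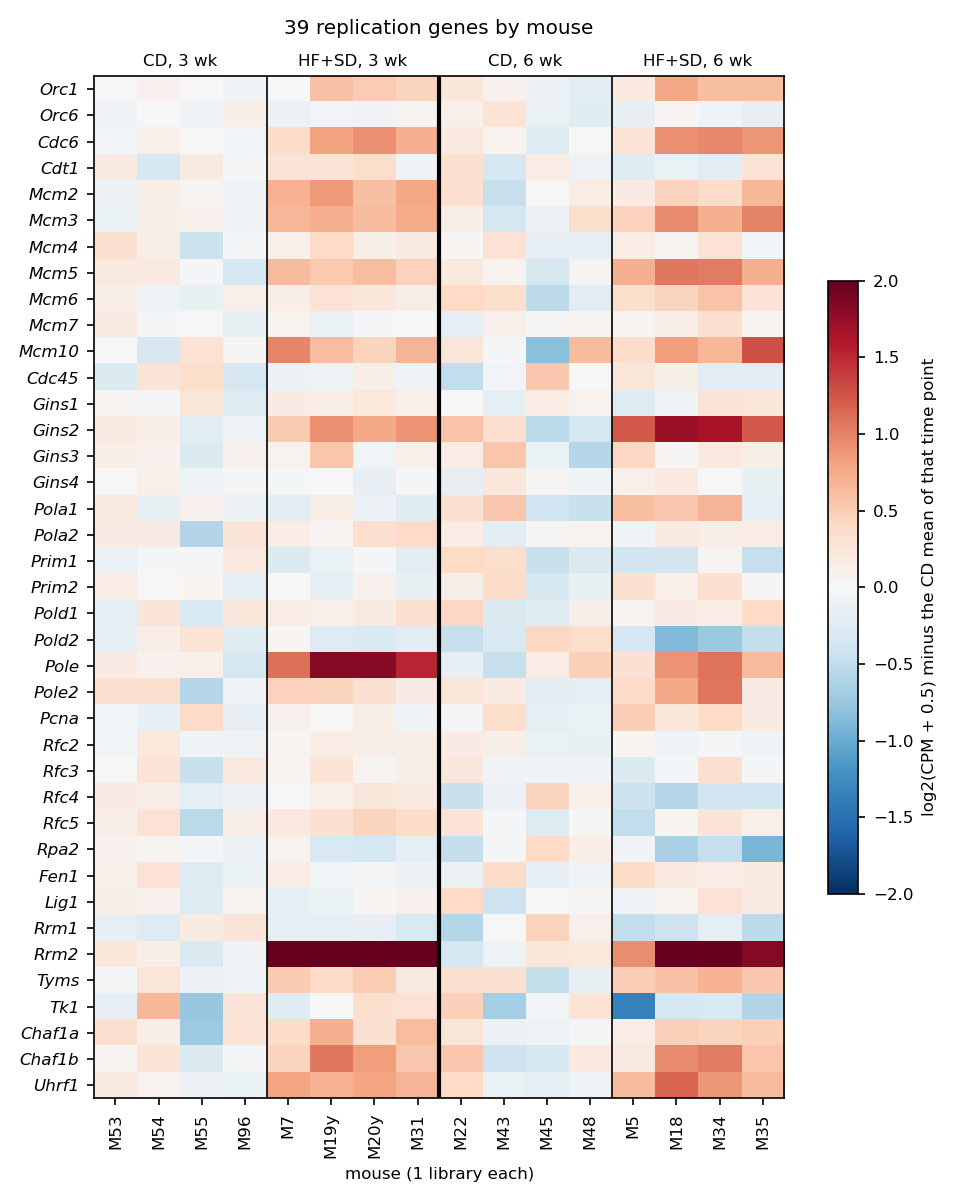
Each of the 39 members (rows, in order of role) in each mouse (columns), as log2(CPM + 0.5) minus the CD mean of the same time point, red for higher and blue for lower, with the colour held at 2 above that size. Rrm2, Pole and Gins2 are red in all 8 HF+SD columns, Rrm2 most deeply and Pole and Gins2 palely in some, whereas rows of clamp loader and primase genes hold both colours.

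The greatest change of all members was that of Rrm2, the small subunit of ribonucleotide reductase, which carries the radical needed to make deoxynucleotides and is known to be made in S phase. At 6 weeks Rrm2 had 0.832, 1.07, 1.46 and 1.45 CPM in CD-fed mice and 2.69, 7.96, 8.14 and 5.51 in HF+SD-fed mice. M5 was the lowest of the HF+SD mice but still above all CD mice, and the log2 fold change was 2.33 (SE 0.37, adjusted p = 0.00312). At 3 weeks it had 0.842, 0.762, 0.437 and 0.592 CPM in CD-fed mice and 4.82, 5.68, 5.27 and 4.31 in HF+SD-fed mice, that is, 17 to 34 counts against 179 to 222. The log2 fold change was 2.93 (SE 0.22, adjusted p = 0.000159).

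Rrm1, the large subunit that carries the active site, did not rise with it, at -0.45 (SE 0.20, adjusted p = 0.144) and -0.23 (SE 0.12, adjusted p = 0.225) at 6 and 3 weeks. The Rrm2 level over the Rrm1 level, both per kb, was 0.0528 to 0.0672 in CD mice and 0.190 to 0.533 in HF+SD mice at 6 weeks, and 0.0288 to 0.0702 and 0.396 to 0.487 at 3 weeks. Transcripts of the small subunit thus remained below those of the large one in every mouse. Tyms, which makes thymidylate, had 6.89 to 12.4 CPM in CD-fed mice and 13.98 to 16.2 in HF+SD-fed mice at 6 weeks, without overlap but short of the threshold (log2 fold change 0.56, SE 0.20, adjusted p = 0.0755), and its log2 fold change at 3 weeks was 0.42 (SE 0.13, adjusted p = 0.0587).

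Tk1, the thymidine salvage kinase, had 16.4, 7.08, 11.2 and 14.1 CPM in CD-fed mice and 4.27, 9.06, 9.36 and 7.60 in HF+SD-fed mice at 6 weeks. At 3 weeks it had 5.35, 9.90, 3.39 and 7.41 in CD-fed mice and 5.08, 6.12, 7.68 and 7.57 in HF+SD-fed mice. The CD mouse M43 lay among the HF+SD mice at 6 weeks and the diets overlapped at 3 weeks, with log2 fold changes of -0.69 (SE 0.31, adjusted p = 0.145) and 0.02 (SE 0.29).

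The 3 genes of chromatin behind the fork had positive log2 fold changes at both time points. Of these, 1 passed at 6 weeks and 2 at 3 weeks, where 12.0% and 9.07% of all genes were higher. Uhrf1, which brings the maintenance methyltransferase to newly copied DNA, had 3.90, 2.56, 2.44 and 2.64 CPM in CD-fed mice and 4.67, 7.02, 5.67 and 4.67 in HF+SD-fed mice at 6 weeks. The groups did not overlap although M22 stood above the other CD mice, and the log2 fold change was 0.93 (SE 0.22, adjusted p = 0.0193). At 3 weeks it had 5.89, 5.44, 4.73 and 4.69 CPM in CD-fed mice and 9.25, 8.70, 9.28 and 8.54 in HF+SD-fed mice, a log2 fold change of 0.79 (SE 0.12, adjusted p = 0.00238). Chaf1b, a subunit of the histone chaperone CAF-1, had 2.35, 0.982, 1.07 and 1.76 CPM in CD-fed mice and 1.74, 3.29, 3.49 and 2.39 in HF+SD-fed mice at 6 weeks. It had 1.49, 1.83, 1.08 and 1.37 in CD-fed mice and 2.13, 3.48, 2.95 and 2.30 in HF+SD-fed mice at 3 weeks. Its groups separated at 3 weeks (log2 fold change 0.91, SE 0.23, adjusted p = 0.0256) and overlapped at 6 weeks (0.82, SE 0.34, adjusted p = 0.113). Chaf1a, its partner, had 0.43 and 0.49 and passed at neither, and 33.6% of its exon bases lie opposite exons of Ubxn6.

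The next question was whether the same members moved at both time points. All 6 members that rose at 6 weeks also rose at 3 weeks (100% of the 6, and 60.0% of the 10 of 3 weeks). Thus 6 of the 38 members were higher at both, beside 5.67% of the 17024 genes tested at both. Over all genes, 966 were higher at both, next to 2184 higher at 6 weeks and 1564 higher at 3 weeks. The 100% and 60.0% are to be set beside those counts, not beside the 5.67%. The log2 fold changes of the 38 members at 3 and 6 weeks had a Pearson r of 0.83 and a Spearman rho of 0.78 across genes, as against r of 0.51 over all genes, and 27 members (71.1%) had the same sign, next to 64.3% of all genes. The mice of the 2 time points are different animals, but genes are not independent replicates. The interaction passed for 0 of 39 members (0.0792% of the 18929 genes tested), with 2 at an unadjusted p under 0.05, Pole and Rfc4 (22.3% of all genes), and 1 called by DESeq2 (9.46% of all genes).

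The members that rose had a lower median level in CD-fed mice than the rest. The median CD level at 6 weeks was 0.944 CPM per kb for the 6 that passed and 3.80 for the 32 that did not, and at 3 weeks 1.10 for the 10 that passed and 4.11 for the 28 that did not. Mcm2 was an exception at 3 weeks, at 5.13 CPM per kb. To keep the level apart from the change, the CD level of the mice of one time point was set against the log2 fold change of the other. Over the 38 members Spearman rho was -0.60 for the change at 6 weeks and -0.78 for the change at 3 weeks. Over the 16617 genes tested at both time points the same rho was 0.01 and -0.12. These are descriptions across genes that share libraries and transcript lengths.

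**Figure D5:**
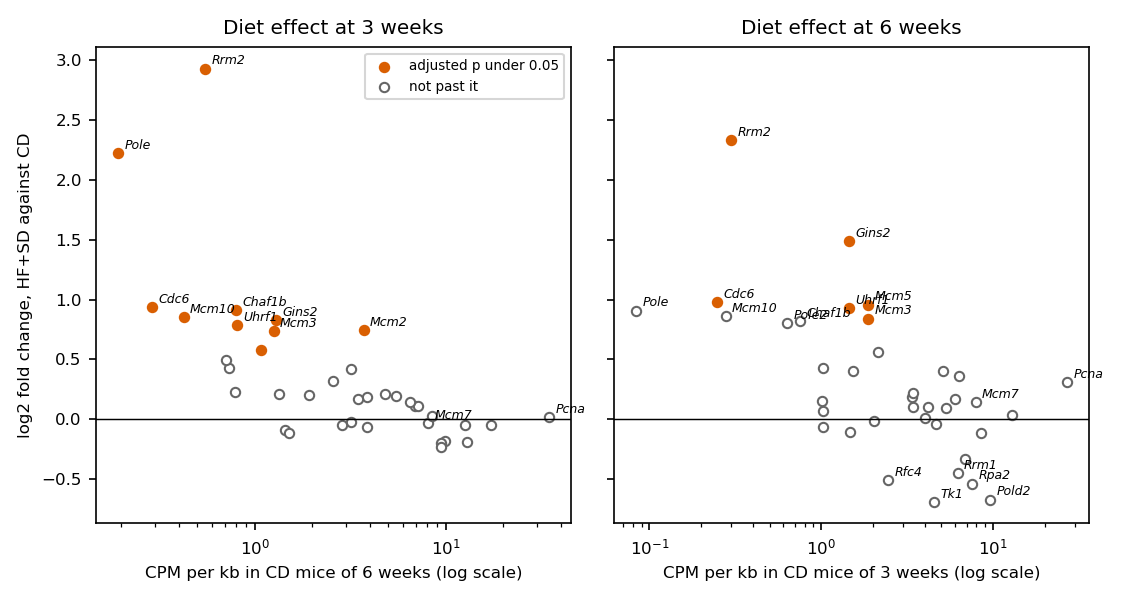
Log2 fold change in HF+SD-fed mice (y axis) of each of 38 members at 3 weeks (left) and 6 weeks (right) against its CD level at the other time point, in CPM per kb on a log axis. Members past the test (orange) lie mostly at lower levels, apart from Mcm2 at 3 weeks, Spearman rho being -0.78 and -0.60, with Pcna at the far right near 0.

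Genes with neighbouring roles that are not among the 39 were counted in the same fits. Over all genes tested, 12.0% were higher and 9.55% lower at 6 weeks, and 9.07% and 5.78% at 3 weeks. Of 34 further replication genes tested, 5 rose and 0 fell at 6 weeks and 5 rose and 1 fell at 3 weeks. The 5 are 14.7% of the list at each time point, not far from that share, so the genes named next do not stand for the list. Clspn, which carries the replication checkpoint signal, rose by 2.29 and 2.32 on the log2 scale at 6 and 3 weeks (adjusted p = 0.00316 and 0.000640). Ticrr, which helps load Cdc45, rose by 2.00 and 1.56 (adjusted p = 0.0153 and 0.0497) from mean levels of 0.102 and 0.160 CPM in CD-fed mice, and Timeless, of the fork protection complex, by 1.27 and 0.54 (adjusted p = 0.00268 and 0.0187). The one that fell was Mcmbp, which binds Mcm subunits, at -0.40 (SE 0.07, adjusted p = 0.00614) at 3 weeks. Of 16 further genes of nucleotide supply and chromatin, 3 rose (18.75%) and 1 fell at each time point. Hells, a chromatin remodeler, rose by 1.23 and 0.77, and Dck, a salvage kinase, by 0.72 at 6 weeks. The genes that fell were Dctpp1, a nucleotide-cleaning phosphatase, at -0.93 at 6 weeks (adjusted p = 0.00507) and Samhd1, which breaks down deoxynucleotides, at -0.47 at 3 weeks (adjusted p = 0.0461).

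Among 15 genes of the E2F and RB families tested, 3 rose and 1 fell at 6 weeks and 3 rose and 0 fell at 3 weeks. The 3 are 20% of the list at each time point, beside 12.0% and 9.07% of all genes higher (9.55% and 5.78% lower). E2f1 and E2f2, activators of S phase genes, rose by 0.81 and 0.99 at 6 weeks and by 0.84 and 1.25 at 3 weeks. E2f7, a repressor of the same genes, rose by 2.38 at 6 weeks (adjusted p = 0.000889) and did not pass at 3 weeks (0.99, adjusted p = 0.0903). The third gene that rose at 3 weeks was E2f8, by 1.41 (adjusted p = 0.00950). It had 0.23 at 6 weeks and did not pass (adjusted p = 0.739). E2f6 fell at 6 weeks by 2.13, its CD mean of 88.0 ± 67.4 CPM (SD, n = 4) having a wide spread. Of 10 genes that replicate mitochondrial DNA, 0 rose at either time point and 2 fell at 6 weeks, Lig3 at -0.40 and Ssbp1 at -0.36. Of 11 genes of translesion synthesis and gap filling, 1 rose at 6 weeks, Rad18 at 0.83, and 0 passed at 3 weeks. All 10 mitotic genes rose past 2-fold at both time points, with a median log2 fold change of 3.08 at 6 weeks and 2.68 at 3 weeks. Top2a, Mki67 and Cenpe rose by 3.16, 3.13 and 3.04 at 6 weeks and by 2.61, 2.89 and 1.81 at 3 weeks. By the same 2-fold rule, 2 of the 38 members tested rose at each time point, beside 6.64% and 3.25% of all genes.

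The count of 6 weeks depended on which CD mice were used. Without the libraries M45 and M48, which hold the most skeletal muscle transcripts, 3 members passed, Gins2 at a log2 fold change of 1.09, Pole at 1.42 and Rrm2 at 2.67 (6.61% of all genes higher). Mcm5, Mcm3, Cdc6 and Uhrf1 then had 0.83, 0.99, 0.83 and 0.78 and did not pass (adjusted p = 0.0513, 0.0549, 0.132 and 0.126). In the same fit 3 of the 34 further replication genes were higher (Clspn, Ticrr and Timeless), and of the 16 nucleotide and chromatin genes 0 were higher and 1 was lower, Dctpp1. Of the E2F and RB genes 1 of 15 was higher, E2f7 at 2.39, while E2f1, E2f2 and E2f6 had 0.89, 1.03 and -0.77 and did not pass. Mitotic genes were higher in 9 of 10, with a median of 3.06, and 0 genes of mitochondrial DNA replication or translesion synthesis passed. With M22 as the only CD mouse, 0 passed, and 3.22% of all genes were higher (edgeR's quasi-likelihood test, 1 mouse against 4, the lone mouse taken to vary like the others), and Rrm2 stood at 2.86 (adjusted p = 0.0646) and Gins2 at 0.94 on the log2 scale. With a skeletal muscle score as a covariate, 2 passed, Gins2 and Rrm2 (6.44% of all genes higher). Leaving out M22, the CD mouse with the least muscle signal, gave 10 higher and 4 lower (15.9% and 14.9% of all genes), the lower being Pold2, Rfc4, Rpa2 and Rrm1. Leaving out M45, M18 or M34 gave 3 higher each (8.82%, 7.40% and 7.36% of all genes), and Mcm5, Gins2 and Rrm2 passed in all 8 of these fits. At 3 weeks, where muscle genes were at most 0.0711% of counts, 7 to 10 passed when a mouse was left out (5.64% to 11.48% of all genes higher). M7 had 72.1 CPM of the lymphocyte and thymus markers, above the 10.9 to 19.9 CPM of the other mice of 3 weeks, and without M7 8 members passed (6.79% of all genes higher). Scaled to 7 thyrocyte genes in place of all genes, which moved the median of all genes to -0.60 at 6 weeks and -0.28 at 3 weeks, 2 members were higher and 10 lower at 6 weeks (4.27% and 39.7% of all genes), and 5 higher and 0 lower at 3 weeks (3.54% and 12.4%). Of the 7 scaling genes, Cdh16 and Iyd themselves rose with the diet before this scaling, by 1.69 and 1.32 on the log2 scale at 6 weeks and by 0.84 and 0.56 at 3 weeks.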

How the data were processed

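Thyroid poly(A) RNA of 16 mice was sequenced as 150 bp read pairs, with 4 mice per diet at 3 and at 6 weeks. The authors deposited raw counts per gene and a normalized signal, which is the count divided by 1 size factor per library. The submitters' processing notes name Trim Galore 0.6.7, STAR, DESeq2 1.36.0, R 4.1.0 and the build mm39, whereas the counting tool, annotation and strand setting were not given in the sources used here. All tests used the deposited counts, and the deposited signal served 1 alternative. Identifiers were matched to GENCODE M21, which gave symbols for 20841 of 21640 genes, and lengths are those of the longest protein-coding transcript. Within each time point, HF+SD was tested against CD using edgeR 4.0.16 under R 4.3.3 (TMM factors, filterByExpr by group, glmQLFit, glmQLFTest, Benjamini-Hochberg over all genes tested, adjusted p under 0.05). The 2-fold rule also asks for an absolute log2 fold change above 1. The standard error is the absolute log2 fold change over the square root of F. CPM uses TMM library sizes. The biological coefficient of variation was 31.2% at 6 weeks and 18.2% at 3 weeks, with 4 mice a group limiting precision. The time points were compared by an interaction term over all 16 libraries.

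The study states n = 3 for the CD at 6 weeks, and all 4 deposited mice were used. Sample groups came from the labels, and no column lacked a sample. The scripts were tested on simulated data. Members and gene lists were chosen with earlier results of these data known. Values in every mouse are printed for the members with the lowest and the highest p at 6 weeks in each role, the 5 with the lowest p at 3 weeks, and any that passed as lower or in the interaction. Values for Orc1 were added after they were seen. Of the other lists, the 3 genes with the lowest p at 6 weeks and any that passed against its list could be named. E2f8 and the parathyroid genes were named in addition. Of the marker lists, 5 of 16 lymphocyte and thymus genes were not analysed here. Alternatives were DESeq2 1.42.0, RLE or upper-quartile factors, no filter or at least 10 counts in every library, 1 fit of all 16 libraries, a muscle score as a covariate, muscle genes left out, scaling to 7 thyrocyte genes, limma 3.58.1 on log2 of the deposited signal plus 1, and each mouse left out. Leaving out M45 and M48, or also M43, was chosen after seeing the data. Protein sequences were not analysed here.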

Additional observations from a re-analysis of the deposited data

Results flagged for a closer look

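Among 156 groups of 4 mice, 10 held a mouse far from the other 3 for a member's CPM (its gap to the next mouse over the range of the 4, past the critical value of Dixon, which chance gives in about 1 in 20 groups). Low mice were M5 among the HF+SD mice of 6 weeks, with 1.71 CPM of Cdc6 against 2.85 to 3.05 in the others and 4.35 CPM of Chaf1a against 5.47 to 5.58. M55 was low among the CD mice of 3 weeks, with 1.95 CPM of Gins3 against 2.70 to 2.75 and 6.43 CPM of Pola2 against 11.1 to 11.9. High mice among the CD mice of 6 weeks were M22, with 11.1 CPM of Rfc3 against 8.81 to 8.97 and 3.90 CPM of Uhrf1 against 2.44 to 2.64, and M43, with 9.84 CPM of Fen1 against 6.63 to 7.14. M34 was high among the HF+SD mice of 6 weeks for Prim1, at 15.8 CPM against 10.9 to 11.7. At 3 weeks, M20y on the HF+SD was high for Cdc45, at 2.35 CPM against 1.91 to 1.97, and M54 on the CD was high for Rfc2, at 26.8 CPM against 21.9 to 22.4.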

How the results depend on the processing

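The 6 members higher at 6 weeks and the 10 higher at 3 weeks were the same genes with RLE or upper-quartile factors, no filter, at least 10 counts in every library, muscle genes left out, and limma. The cause of the following changes was not tested. Counts past 2-fold, of the fit of all 16 libraries and of interactions with a mouse left out are given without their share of all genes. They are therefore not read as a result about the members. For members lower at 6 weeks the count was 1 by DESeq2 (14.2% of all genes) and 4 in 1 fit of all 16 libraries. DESeq2 called 1 interaction (9.46% of all genes). With the muscle score, 2 were higher at 6 weeks (6.44% of all genes), 1 past 2-fold, and 8 at 3 weeks, where Mcm10 and Chaf1b no longer passed. In 1 fit of all 16 libraries, 7 of the 38 members were higher at 6 weeks, with Tyms added. At 3 weeks that fit gave 8, again without Mcm10 and Chaf1b. Scaled to thyrocyte genes, 2 were higher and 10 lower at 6 weeks, beside 4.27% and 39.7% of all genes (past 2-fold 1 and 5). At 3 weeks 5 were higher (3.54% of all genes). Without M45 and M48, 3 were higher, and without M43, M45 and M48, 0 were higher and 0 past 2-fold. Each mouse left out in turn gave, at 6 weeks, 3 to 10 higher (7.36% to 15.9% of all genes) and 0 to 4 lower (2.99% to 14.9%). Past 2-fold were 2 to 7 at 6 weeks and 2 to 4 at 3 weeks, and interactions were 0 to 2.

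Signs of log2 fold changes turned as follows, all in members that had not passed. Rfc3 at 6 weeks was -0.0153 by DESeq2, -0.0152 with RLE factors, -0.0497 in 1 fit of 16 libraries and -0.0346 by limma. In 1 fit of 16 libraries, the value at 6 weeks was Gins4 -0.0192. With the muscle score, values at 6 weeks were Cdc45 0.48, Gins3 -0.0312, Pold1 -0.0666, Rfc3 -0.19, Lig1 -0.14 and Rrm1 0.0051. At 3 weeks they were Cdc45 0.28, Fen1 0.0280 and Tk1 -0.0102. Scaled to thyrocyte genes, values at 6 weeks were Mcm2 -0.17, Mcm4 -0.49, Mcm6 -0.19, Mcm7 -0.48, Gins1 -0.55, Gins3 -0.42, Gins4 -0.58, Pola1 -0.16, Pola2 -0.50, Prim2 -0.39, Pold1 -0.38, Pcna -0.28, Rfc3 -0.58, Fen1 -0.39, Lig1 -0.48, Tyms -0.0024 and Chaf1a -0.16. At 3 weeks they were Cdt1 -0.0619, Mcm4 -0.0715, Mcm6 -0.0783, Gins1 -0.0771, Gins3 -0.0475, Pola2 -0.0411, Pold1 -0.0765, Pcna -0.27, Rfc2 -0.15, Rfc3 -0.13, Rfc4 -0.12 and Tk1 -0.21. Without M45 and M48, values at 6 weeks were Mcm4 -0.0457, Cdc45 0.31, Gins3 -0.18, Prim2 -0.0321 and Rfc3 -0.0586. Without M43, M45 and M48, values at 6 weeks were Cdc45 0.58, Pola2 -0.0472, Pold1 -0.23, Rfc3 -0.22, Rfc4 0.0016, Lig1 -0.31 and Rrm1 0.17. With each mouse left out, values at 6 weeks ran as Cdt1 -0.27 to 0.0452, Gins4 -0.0112 to 0.10, Rfc2 -0.10 to 0.0180, Rfc5 -0.11 to 0.14, Gins1 -0.0427 to 0.19, Pola2 -0.0059 to 0.16, Rfc3 -0.11 to 0.10, Lig1 -0.0670 to 0.26, Cdc45 -0.22 to 0.17 and Gins3 -0.0318 to 0.38. At 3 weeks they ran as Mcm7 -0.0764 to 0.0327, Pcna -0.0395 to 0.16, Fen1 -0.11 to 0.0804, Tk1 -0.19 to 0.29, Cdc45 -0.21 to 0.0647 and Rfc3 -0.0263 to 0.21.

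No paired analysis was possible because the mice carry different numbers in each group. At 4 mice a group, a small change could not be told from none, and Orc1 (0 to 15 counts) entered the tests of a time point only without the low-count filter or in fits whose filter kept it.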
